A study of Homo sapiens with 6 samples.

Results

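The 9 genes described here encode CDK inhibitors of the CIP/KIP and INK4 families (CDKN1B, CDKN1C, CDKN2A, CDKN2B, CDKN2C, CDKN2D) and the retinoblastoma (pocket) proteins (RB1, RBL1, RBL2). They were taken by gene name from a table of 58735 genes, and the rule used no expression value. RNA was sequenced from MM.1S, an established human multiple myeloma cell line, in 3 control libraries and 3 PRMT1 knockdown (PRMT1 KD) libraries. The control cells received a negative control siRNA (si-NC) and the PRMT1 KD cells an siRNA against PRMT1 (si-PRMT1), an arginine methyltransferase. Both were given transiently at 100 nM with Lipofectamine RNAiMAX, and the RNA described here was from 72 h after transfection. The siRNAs, reagent, dose and time are from the study's text, and the labels give no treatment or genotype beyond control or knockdown. The sources used here do not say which of the siRNAs designed against PRMT1 was used for sequencing, so an effect of that siRNA on other transcripts and an effect of PRMT1 loss cannot be told apart. The comparison answers whether these brakes on the cell cycle differed in mRNA level when PRMT1 was knocked down.

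CDK inhibitors and pocket proteins hold cells in G1. INK4 proteins bind CDK4 and CDK6 and keep them from cyclin D, whereas CIP/KIP proteins bind cyclin-CDK complexes, above all those of CDK2. Cyclin-CDK complexes phosphorylate the pocket proteins, which otherwise bind E2F factors and silence the genes of S phase entry. In myeloma, loss or silencing of CDKN2C, CDKN2A and RB1 and overexpression of a D-type cyclin are recurrent ways around this brake. Much of the control of p27 and of the pocket proteins is on the protein, by degradation and phosphorylation, which mRNA levels do not show.

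Expression was deposited as FPKM, the fragments counted on a gene relative to its length and to the size of the library, so that levels can be compared between genes. Reads worked back from these values came to between 14439217 and 16465026 per library. PRMT1 was 61.7, 62.8 and 58.9 FPKM in the control libraries and 13.3, 14.0 and 12.5 FPKM in the PRMT1 KD libraries, 21.7% of the control mean, so every library matched its label. The 9 plasma cell markers examined were present in every library, with summed levels of 1329 to 1409 FPKM in control and 1314 to 1487 FPKM in PRMT1 KD libraries. Within them SLAMF7 fell from 38.0 to 23.8 FPKM (difference -0.65 on the log2(FPKM + 1) scale, limma adjusted p = 0.00515). PRDM1 and XBP1 were lower and CD38 and MZB1 higher in every PRMT1 KD library without passing the test (adjusted p 0.133 to 0.243). JCHAIN, XBP1 and TNFRSF17 were the largest parts of the sums. CD38 was the lowest of the 9 markers, at 1.82 to 2.09 FPKM in control and 2.28 to 2.57 FPKM in PRMT1 KD libraries. The part of these markers in the results below was not tested. Of 10 markers of other cell types, 7 were under 1 FPKM in every library and 2 of these (MS4A1 and HBB) were at 0. Their summed levels of 53.5 to 60.6 and 57.9 to 60.2 FPKM came almost wholly from CD3E and KRT8, at 32.1 to 35.6 and 19.95 to 23.1 FPKM in control and 36.5 to 39.0 and 19.5 to 20.1 FPKM in PRMT1 KD libraries. CD3D, the partner of CD3E in T cells, was at most 0.845 FPKM. In bulk RNA, a gene carried by fewer cells and a gene at a lower level per cell cannot be told apart. The labels do not say whether libraries of a group came from separate cultures, so p-values measure the spread between these libraries, which may be technical.

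None of the 8 members that could be tested passed the threshold of an adjusted p under 0.05, against 2.05% of the 13585 genes tested (limma on log2(FPKM + 1), Benjamini-Hochberg adjustment over all genes). RBL2 and RBL1 lay nearest to it and were both higher in every PRMT1 KD library than in any control library, at 119% and 124% of their control means. CDKN2C was also higher in every PRMT1 KD library, at 115% of its control mean. CDKN1B, CDKN2A, CDKN2B, CDKN2D and RB1 overlapped between the groups, and CDKN1C had no read. At an unadjusted p under 0.05, 3 of the 8 members passed (RBL2, RBL1 and CDKN2C, all higher), against 19.5% of all genes tested. The groups did not overlap for the same 3 members, against 25.9% of all genes tested. The exact two-sided permutation p was 0.1 for these 3 members, the smallest that 3 libraries against 3 allow, and 0.2 to 0.6 for the other 5. With voom, limma's model for counts, fitted to the reads worked back, 2 members were called (RBL2 and RBL1), against 6.82% of all genes tested.

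**Figure D1:**
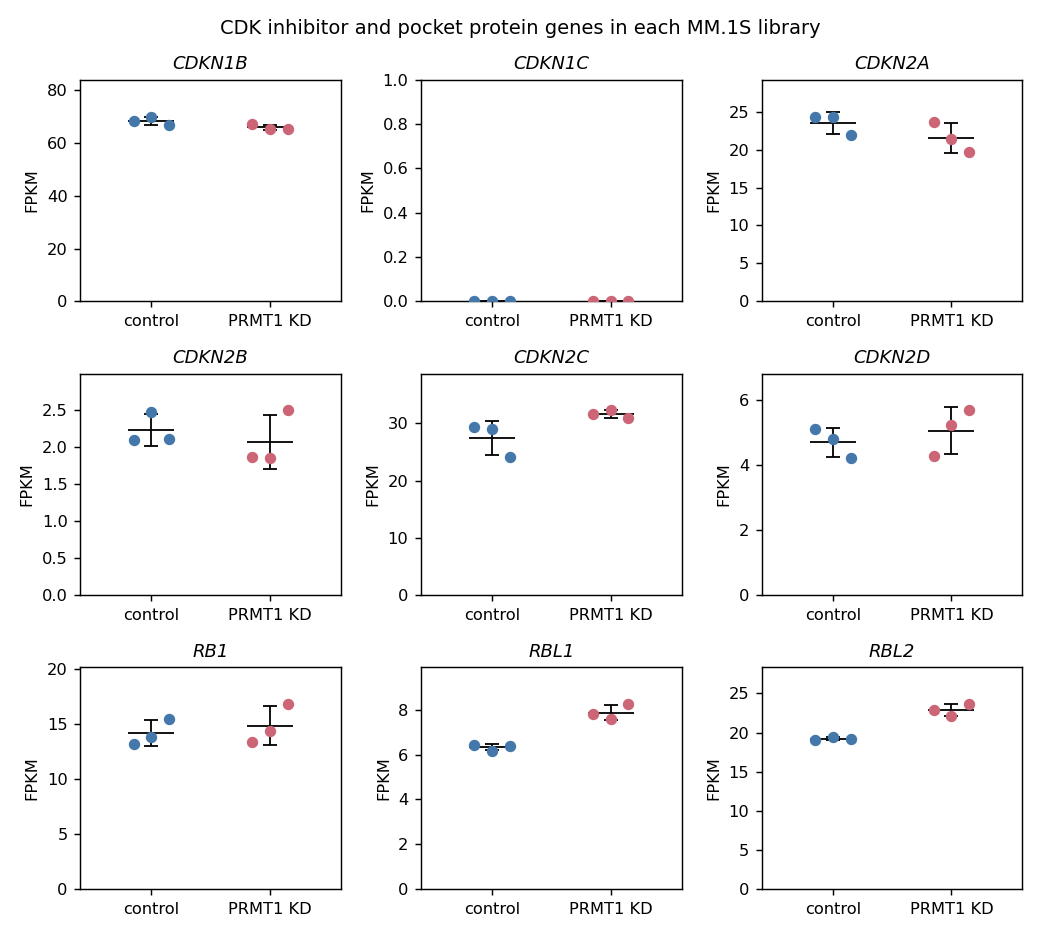
FPKM (vertical axes, each from 0) of the 9 genes in the 3 control libraries (blue points) and the 3 PRMT1 KD libraries (red points), with the mean and SD of each group as a black line and bars. The PRMT1 KD points lie above all control points for CDKN2C, RBL1 and RBL2 and overlap with them for CDKN1B, CDKN2A, CDKN2B, CDKN2D and RB1, and CDKN1C lies at 0 throughout.

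The levels of the members spanned a wide range in MM.1S. In control libraries CDKN1B was the highest, at 68.3 ± 1.63 FPKM (SD, n = 3). CDKN2C (27.5 ± 2.95 FPKM) and CDKN2A (23.5 ± 1.41 FPKM) came next, and their ranges over libraries overlapped. Below them stood RBL2, RB1, RBL1, CDKN2D, CDKN2B and CDKN1C in that order, each with a range apart from its neighbours. In PRMT1 KD libraries the order was the same except that RBL2 (22.9 ± 0.748 FPKM) stood above CDKN2A (21.6 ± 2.01 FPKM), with overlapping ranges. The mean number of reads per library was between 116 for CDKN2D and 3001 for CDKN1B, apart from CDKN1C, so CDKN2D and CDKN2B (139 reads) had the least precise values.

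CDKN1B encodes p27KIP1, the CIP/KIP inhibitor that holds cyclin E-CDK2 in check in quiescent cells. In hg38 its locus spans 12715058 to 12722371 of chromosome 12 (plus strand). CDKN1B was 68.3, 70.0 and 66.7 FPKM in the control libraries and 67.1, 65.4 and 65.3 FPKM in the PRMT1 KD libraries. The second and the third PRMT1 KD libraries lay below every control library, and the first lay within the control range. The difference on the log2(FPKM + 1) scale was -0.05 (SE 0.0397, 95% CI -0.15 to 0.04), with a limma adjusted p of 0.518. This interval covers ratios between 0.904 and 1.03, the narrowest among the members. An annotated gene of the same strand, AC008115.3, lies within the CDKN1B locus without sharing an exon base with it, and was 13.3 to 15.5 FPKM in control and 15.8 to 16.6 FPKM in PRMT1 KD libraries.

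CDKN1C encodes p57KIP2, an imprinted CIP/KIP inhibitor best known from embryonic growth. Its locus spans 2883213 to 2885773 of chromosome 11 (minus strand). No read was counted on CDKN1C in any of the 6 libraries. A count of 0 allows up to 3 reads, which corresponds to between 0.0731 and 0.0841 FPKM depending on the library, for counting error only. CDKN1C was not tested, and a difference between the groups was not detectable at this depth.

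CDKN2A (chromosome 9, 21967753 to 21995301, minus strand) encodes both p16INK4a, the first INK4 inhibitor described, and p14ARF, which stabilises p53 by binding MDM2. The deposited value counts both as a single gene of 14 annotated transcripts, so the products could not be separated. CDKN2A was 24.3, 24.3 and 21.9 FPKM in control and 23.7, 21.3 and 19.7 FPKM in PRMT1 KD libraries. The groups overlapped, with the first PRMT1 KD library above the lowest control library. The difference was -0.12 on the log2(FPKM + 1) scale (SE 0.0778, 95% CI -0.31 to 0.06, limma adjusted p = 0.442). It was -0.06 without the third and -0.19 without the first PRMT1 KD library, and -0.10 to -0.17 with any other left out. CDKN2B-AS1, the antisense transcript known as ANRIL, shares 341 exon bases with CDKN2A (7.88% of its exons) and was 0.664 to 1.07 FPKM in the 6 libraries. Whether counting used the strand was not given in the sources used here, so reads in those bases may belong to either gene. AL359922.1, which overlaps the loci of CDKN2A and CDKN2B without a shared exon base, had no read.

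CDKN2B, the neighbour of CDKN2A on chromosome 9 (22002903 to 22009363, minus strand), encodes p15INK4b, an INK4 inhibitor induced by TGF-beta in epithelial cells. Its levels were 2.10, 2.48 and 2.10 FPKM in control and 1.87, 1.85 and 2.49 FPKM in PRMT1 KD libraries. The third PRMT1 KD library was the highest of all 6 and the other two were the lowest. The difference of -0.08 (SE 0.114, 95% CI -0.35 to 0.19) did not pass the test (limma adjusted p = 0.757), and its interval was the widest among the members. With a library left out it was between -0.021 (without the second control library) and -0.17 (without the third PRMT1 KD library), and it was -0.030 and -0.026 without the first and the second PRMT1 KD library.

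CDKN2C encodes p18INK4c, the INK4 inhibitor that accompanies terminal differentiation of plasma cells and is lost with a recurrent deletion of chromosome arm 1p in myeloma. The gene spans 50960745 to 50974633 of chromosome 1 (plus strand). CDKN2C was 29.3, 29.02 and 24.1 FPKM in control and 31.6, 32.3 and 30.9 FPKM in PRMT1 KD libraries. All 3 PRMT1 KD libraries lay above the control libraries, and the third control library stood well below the other two. The difference was 0.20 (SE 0.0787, 95% CI 0.01 to 0.39), with an unadjusted p of 0.0388 and an adjusted p of 0.226 in limma. Without the third control library the difference was 0.11 (adjusted p = 0.230), and with any other library left out it was 0.18 to 0.25.

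CDKN2D (chromosome 19, 10566462 to 10569059, minus strand) encodes p19INK4d, the INK4 inhibitor whose level oscillates through the cell cycle. It was 5.10, 4.79 and 4.23 FPKM in control and 4.27, 5.22 and 5.68 FPKM in PRMT1 KD libraries. The second and the third PRMT1 KD libraries lay above every control library, and the first lay within the control range. The difference of 0.08 (SE 0.106, 95% CI -0.17 to 0.33) did not pass the test in limma (adjusted p = 0.714). It was 0.0084 without the third and 0.18 without the first PRMT1 KD library, and 0.021 without the third and 0.13 without the first control library.

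Summed over the 4 INK4 genes, expression was 57.9 ± 4.88 FPKM in control and 60.3 ± 1.41 FPKM in PRMT1 KD libraries (SD, n = 3), and the groups overlapped. CDKN2A enters this sum with p16INK4a and p14ARF counted together. Within this sum, CDKN2C was 48.2%, 47.9% and 46.1% of it in control libraries and 51.5%, 53.2% and 52.6% in PRMT1 KD libraries. CDKN2A took 39.9%, 40.1% and 41.8% in control and 38.5%, 35.2% and 33.5% in PRMT1 KD libraries. Neither share overlapped between the groups: that of CDKN2C was higher and that of CDKN2A lower in PRMT1 KD libraries. The ratio of CDKN2C to CDKN2A, examined after the values were seen and given without a test, was 1.17 ± 0.0578 in control and 1.47 ± 0.121 in PRMT1 KD libraries.

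RB1 (chromosome 13, 48303726 to 48599436, plus strand) encodes the retinoblastoma protein, the pocket protein that restrains the activating E2F factors. RB1 was 13.2, 13.8 and 15.5 FPKM in control and 13.4, 14.4 and 16.8 FPKM in PRMT1 KD libraries. The groups overlapped, and in each of them the third library was the highest. The difference of 0.06 (SE 0.0936, 95% CI -0.16 to 0.28) did not pass the test in limma (adjusted p = 0.759). It was -0.024 without the third PRMT1 KD library, so its direction rested on that library, and 0.017 to 0.13 with any other left out. The 9 annotated genes that overlap the RB1 locus (LPAR6, RCBTB2, PPP1R26P1, PCNPP5, RF00017, LINC01077, LINC00462, AL392048.1 and AL157813.1) share no exon base with RB1 and were at most 0.252 FPKM.

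RBL1 encodes p107, the pocket protein that accumulates as cells enter the cycle and binds the repressive E2F4 and E2F5. The gene spans 36996349 to 37095995 of chromosome 20 (minus strand). Its promoter is known to carry E2F sites, and the stretch just before its start is shown because it is the sole member promoter in which the motif searched was found. The sequence is from RefSeq (GRCh38.p14), runs over chr20:37096000-37096029 on the minus strand, 5′ to 3′, and covers bases -32 to -3 before the annotated start. The capitals mark the motif matches, at -26 to -19 and -16 to -9.
RBL1: gcagatTTTCGCGCgcTTTGGCGCaggtgg

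The motif searched was TTTCCCGC, TTTCGCGC, TTTGCCGC or TTTGGCGC on either strand, in windows of 250 bases before to 50 bases after an annotated start. Of 35116 promoters, 1164 (3.31%) held a match and 51 (0.145%) held 2 or more, as RBL1 did. For the members, 8 of 9 genes had 12 promoters in the table, and CDKN1C had no entry. The entry of RB1 was of an internal start at 48476200 to 48476499 and not of the first exon. No match lay in the windows of CDKN1B, CDKN2A, CDKN2B, CDKN2C, CDKN2D, RB1 and RBL2, which says only that these letters are not there.

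RBL1 was 6.45, 6.17 and 6.38 FPKM in control and 7.79, 7.57 and 8.25 FPKM in PRMT1 KD libraries. Every PRMT1 KD library was above every control library, with a gap larger than the spread within either group. The group means were 6.33 ± 0.149 and 7.87 ± 0.345 FPKM (SD, n = 3), and the difference was 0.27 on the log2(FPKM + 1) scale (SE 0.0556, 95% CI 0.14 to 0.41). Its unadjusted p was 0.00169 and its adjusted p 0.0622 in limma, which placed it 368th of the 13585 genes. AL136172.1, on the opposite strand, shares 211 exon bases with RBL1 (3.54%) and was at most 0.260 FPKM. The pseudogenes RPS3AP3 and RPS27AP3, both under 1 FPKM in every library, lie in the locus without a shared exon base.

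RBL2 encodes p130, the pocket protein of resting cells and the core of the DREAM complex, in which it joins E2F4, DP1 and the MuvB subunits to silence cell cycle genes. The gene spans 53433977 to 53491649 of chromosome 16 (plus strand). RBL2 was 19.1, 19.5 and 19.1 FPKM in control and 22.9, 22.1 and 23.6 FPKM in PRMT1 KD libraries. The control libraries lay close together and all 3 PRMT1 KD libraries lay above them. The group means were 19.2 ± 0.191 and 22.9 ± 0.748 FPKM (SD, n = 3), and the difference was 0.24 (SE 0.0448, 95% CI 0.13 to 0.34). Its unadjusted p of 0.0011 was the smallest among the members and ranked 291st of all genes, of which 279 were called, the last of them at a p of 0.00102. The limma adjusted p was 0.0514.

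AKTIP, a gene of the opposite strand whose 3′ end meets that of RBL2, shares 610 exon bases with it (8.33% of the exons of RBL2). AKTIP was 1.78, 1.53 and 1.66 FPKM in control and 2.31, 2.26 and 2.47 FPKM in PRMT1 KD libraries, so it too was higher in every PRMT1 KD library. AC007342.6, also of the opposite strand, shares 721 exon bases (9.85%) and was at most 0.152 FPKM. AC007342.1 and AC007342.7 (at most 0.257 and 0.393 FPKM) and RNU6-1153P (1.77 FPKM in 1 library and 0 in the others) share no exon base with RBL2. With the strand of counting unknown, reads in the shared bases cannot be assigned, and their part in the difference of RBL2 was not tested.

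**Figure D2:**
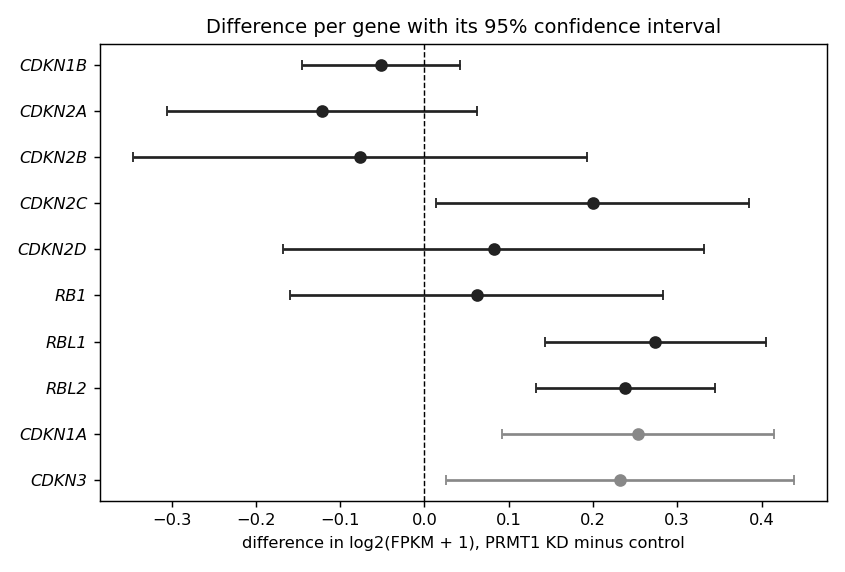
Difference in log2(FPKM + 1) between 3 PRMT1 KD and 3 control libraries (horizontal axis, positive where PRMT1 KD was higher) with its 95% confidence interval from limma, for the 8 members tested (black) and the related inhibitors CDKN1A and CDKN3 (grey). The intervals of CDKN2C, RBL1 and RBL2 lie above 0, at 0.01 to 0.39, 0.14 to 0.41 and 0.13 to 0.34, while no member passed the adjusted threshold.

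Whether RBL1 and RBL2 were called depended on how the values were fitted. RBL2 and RBL1 passed with voom on the reads (adjusted p = 0.0171 and 0.0201), with a filter at a mean of 5 FPKM (0.0329 and 0.0434) and after rescaling to TPM (0.0419 and 0.0487). They did not pass in the other 11 alternatives, and with each library left out in turn the limma adjusted p was 0.0937 to 0.2 for RBL2 and 0.103 to 0.198 for RBL1. The difference itself moved little, from 0.22 to 0.27 for RBL2 and from 0.24 to 0.32 for RBL1 over all 14 alternatives. Both were higher in PRMT1 KD libraries in each of these settings.

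**Figure D3:**
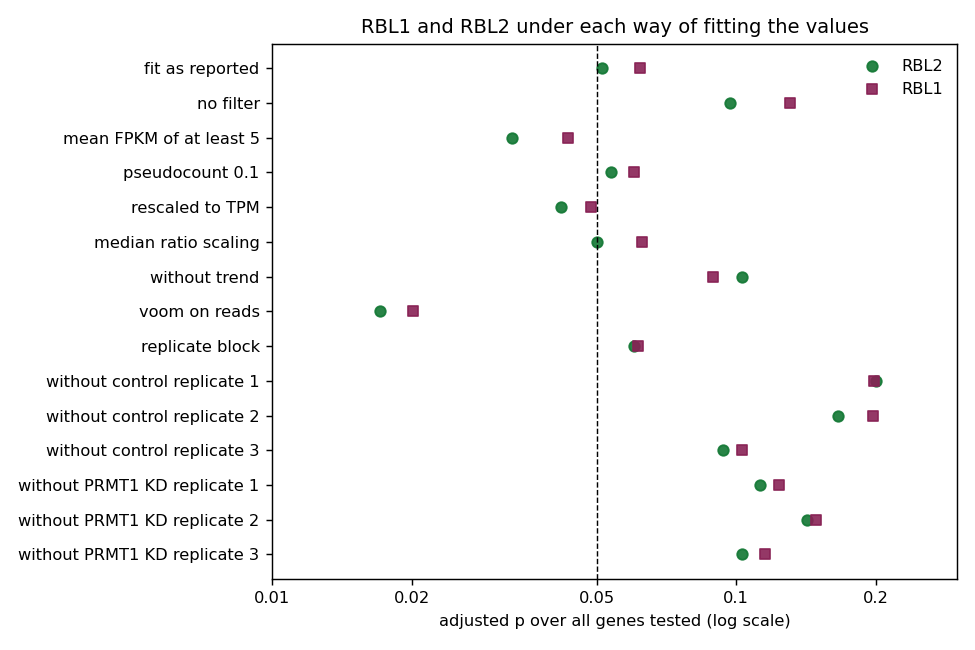
Adjusted p (horizontal log axis) of RBL2 (green circles) and RBL1 (purple squares) in the fit as reported and in 14 alternatives (rows), with the threshold of 0.05 as a dashed line. Both genes lie left of the line in 3 alternatives (mean FPKM of at least 5, TPM, voom on reads) and right of it in the others and in the fit as reported.

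Summed over RB1, RBL1 and RBL2, pocket protein mRNA was 38.8, 39.4 and 41.0 FPKM in control and 44.1, 44.1 and 48.7 FPKM in PRMT1 KD libraries. All PRMT1 KD libraries lay above the control libraries. RBL2 was the largest part, with 48.4% ± 1.52 of the sum in control and 50.2% ± 1.71 in PRMT1 KD libraries, and these shares overlapped. RBL1 was 15.9% ± 0.595 of the sum in control and 17.3% ± 0.379 in PRMT1 KD libraries, without overlap and without a test. Of 3 ratios chosen after the values were seen, RBL1 over RB1 was 0.448 ± 0.0377 in control and 0.532 ± 0.0461 in PRMT1 KD libraries, without overlap. RBL2 over RB1 was 1.36 ± 0.111 and 1.55 ± 0.153, with overlap, and RBL2 over RBL1 was 3.04 ± 0.102 and 2.91 ± 0.0390, without overlap.

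**Figure D4:**
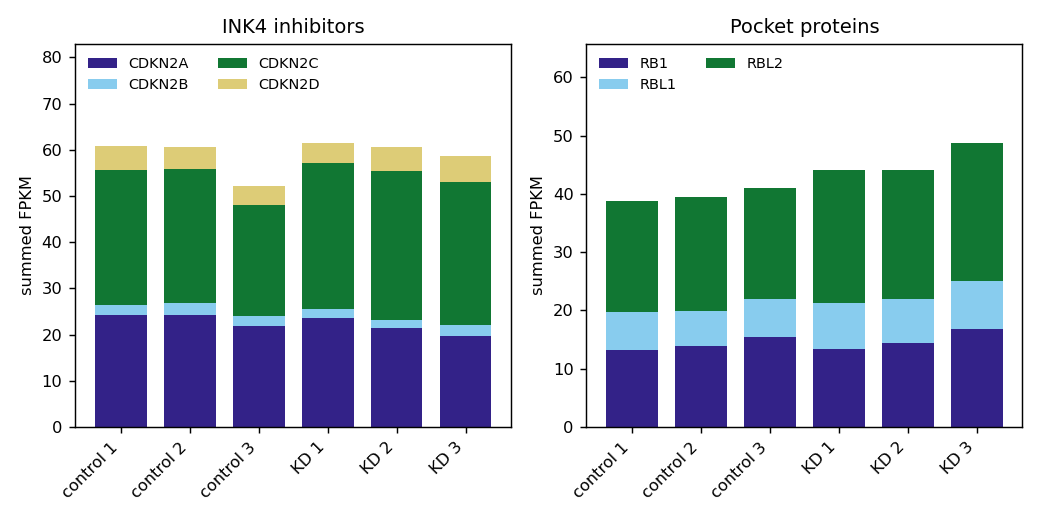
Summed FPKM per library (vertical axes from 0) of the 4 INK4 genes (left) and the 3 pocket protein genes (right), with each gene as a coloured part of the bar. The pocket protein bars of the 3 PRMT1 KD libraries (44.1 to 48.7 FPKM) exceed those of the controls (38.8 to 41.0 FPKM), while the INK4 sums overlap.

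Over the 6 libraries, the genes whose log2(FPKM + 1) followed RBL2 most closely were POLR2D (Pearson r = 0.998), RAP2C (0.994) and C8orf59 (0.994). All 3 were low in control and high in PRMT1 KD libraries, as RBL2 was. That pattern follows from their choice by correlation with RBL2 over the same 6 libraries, so their differences are a description only. RAP2C differed by 0.33 (limma adjusted p = 0.0377), POLR2D by 0.11 (0.237) and C8orf59 by 0.22 (0.0786).

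Of the related inhibitors outside the 9 genes, CDKN1A encodes p21, the CIP/KIP inhibitor induced by p53. CDKN1A was 22.8, 21.1 and 20.4 FPKM in control and 27.1, 26.5 and 23.7 FPKM in PRMT1 KD libraries. Its PRMT1 KD libraries all lay above the control libraries, with a difference of 0.25 (SE 0.0685, 95% CI 0.09 to 0.42, limma adjusted p = 0.113). CDKN3, a phosphatase of CDK2, differed by 0.23 (adjusted p = 0.209). Neither passed, while voom on the reads called CDKN1A (adjusted p = 0.0418). The ratio of CDKN1A to CDKN1B, chosen after the values were seen, was 0.314 ± 0.0174 in control and 0.391 ± 0.0247 in PRMT1 KD libraries.

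A list of 13 genes of G1/S cyclins and CDKs, with CDC25A, CDK7, CCNH and MNAT1 among them, held 2 called genes, both higher. Of all 13585 genes tested, 145 were called higher and 134 lower. CDK6, an INK4 target, was 13.9, 13.0 and 15.1 FPKM in control and 20.4, 19.7 and 20.3 FPKM in PRMT1 KD libraries, a difference of 0.50 (limma adjusted p = 0.0240). CCNA2, the S phase cyclin of CDK2, rose by 0.28 (adjusted p = 0.0404). CDK4, the other INK4 target, was 39.1 ± 2.56 and 37.9 ± 0.117 FPKM with a difference of -0.04 (adjusted p = 0.711). At an unadjusted p under 0.05 the list held 4 higher genes and 1 lower gene, against 19.5% of all genes tested. The lower gene, CCND1, was 113, 116 and 107 FPKM in control and 102, 102 and 98.6 FPKM in PRMT1 KD libraries. This D-type cyclin differed by -0.15 (limma adjusted p = 0.139). The median of the 13 differences was 0.02, against 0.0095 over all genes tested.

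Read against their targets, the INK4 sum was 1.14, 1.11 and 1.01 of CDK4 plus CDK6 in control and 1.05, 1.05 and 1.01 in PRMT1 KD libraries, with overlap. The CDKN2A part of this sum includes p14ARF, which could not be separated from p16INK4a. CDKN1A, CDKN1B and CDKN1C together were 8.32, 6.91 and 7.16 times CDK2 in control and 6.67, 6.25 and 6.42 times CDK2 in PRMT1 KD libraries. All 3 PRMT1 KD libraries were below the control libraries in this ratio. CDK2 itself was 12.1 ± 1.12 and 14.2 ± 0.430 FPKM (difference 0.22, limma adjusted p = 0.156).

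Of 10 E2F and DP factors, of which E2F1 to E2F5 bind pocket proteins, 9 passed the filter. Of these 9, 1 was called, E2F7, against 2.05% of all genes tested. Their median difference was 0.14, against 0.0095 over all genes tested. E2F7, an atypical repressor that binds neither pocket proteins nor a DP partner, was 8.89, 8.61 and 8.73 FPKM in control and 11.5, 11.7 and 11.5 FPKM in PRMT1 KD libraries. The difference was 0.37 (limma adjusted p = 0.0240). The activators E2F1 (0.22), E2F2 (0.20) and E2F3 (0.15) and the repressor E2F4 (-0.15) did not pass, with adjusted p between 0.143 and 0.279. TFDP1, which encodes DP1, was lower by a difference of -0.19 that did not pass either (adjusted p = 0.0926). E2F5, under the filter at 0.685 ± 0.0774 and 0.952 ± 0.145 FPKM, was not tested. The pocket protein sum over E2F1 to E2F5 was 0.447 ± 0.0325 in control and 0.475 ± 0.0492 in PRMT1 KD libraries, with overlap.

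No gene was called among the 7 genes of the DREAM and MuvB list (median difference 0.06), the 12 genes of p27 turnover (0.02) and the 10 chromatin partners of RB (0.05). Over all genes tested, 2.05% were called and the median difference was 0.0095. The DREAM and MuvB list holds MYBL2 and the kinase DYRK1A beside the subunits. At an unadjusted p under 0.05 these lists held 1 higher gene, 3 higher and 2 lower genes, and 1 higher gene, against 19.5% of all genes tested in either direction. MYBL2, which replaces the pocket protein on MuvB in cycling cells, differed by 0.30 (limma adjusted p = 0.144), and LIN9, a MuvB subunit, by 0.20 (0.385). CKS2, a small protein that binds CDKs, differed by 0.26 (0.0656) and CUL4A, a cullin of p27 degradation, by -0.21 (0.0738). HDAC1, a deacetylase recruited by pocket proteins, differed by 0.18 (0.0704) and ARID4A, a retinoblastoma-binding protein, by 0.15 (0.470). With voom, 1 of the 7 DREAM and MuvB genes (higher) and 4 of the 12 p27 turnover genes (2 higher and 2 lower) were called, against 6.82% of all genes tested.

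Of the 21 genes of S phase entry that E2F factors drive, 20 had a positive difference and 11 were higher in every PRMT1 KD library than in any control library, as were 1845 of all 13585 genes tested. RRM2, a subunit of ribonucleotide reductase, was the only gene called (difference 0.35, limma adjusted p = 0.0377), against 2.05% of all genes tested. CDT1, a licensing factor of replication origins, differed by 0.24 (limma adjusted p = 0.113). At an unadjusted p under 0.05, 8 of the 21 were higher and none was lower, against 1368 higher and 1287 lower of all 13585. The median difference was 0.10, against 0.0095 over all genes tested, of which 7143 of 13585 were positive. Of the 18 genes of this list with a promoter entry, 12 held the motif shown for RBL1, against 3.99% of the 27305 genes in the table. RRM2, CDK6, CCNA2 and E2F7, the called genes of the lists, held none, which says only that these letters are not in the windows searched.

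Over all lists, 4 of 74 genes tested were called, all higher, and 21 higher and 5 lower genes had an unadjusted p under 0.05, against 2.05% and 19.5% of all genes tested. The 4 calls were at 0 or 1 gene when any library was left out, while their differences stayed positive. With voom on the reads, 10 higher and 3 lower genes were called, against 6.82% of all genes tested.

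**Figure D5:**
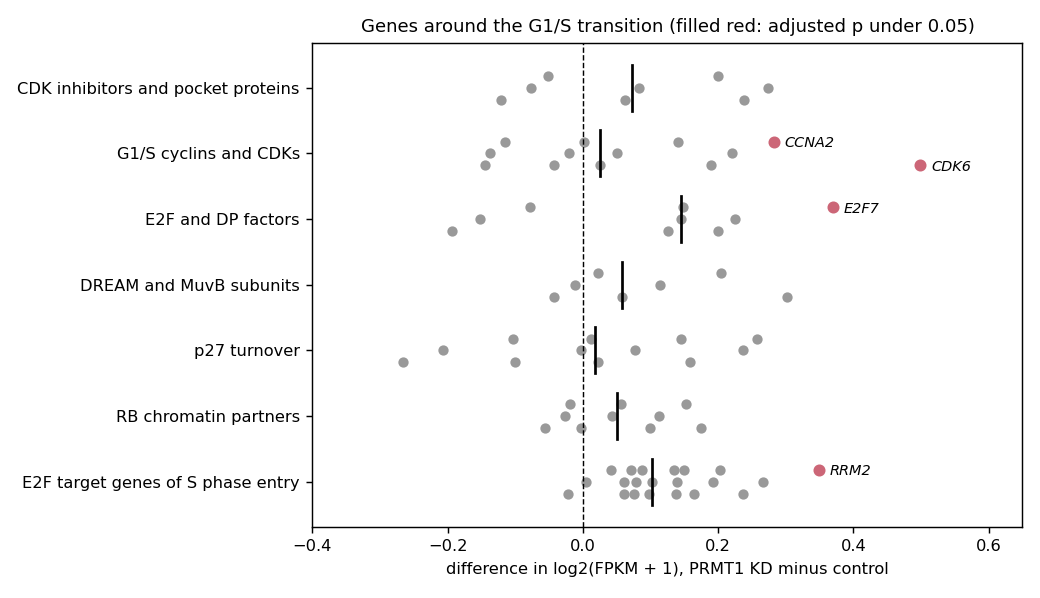
Difference in log2(FPKM + 1), PRMT1 KD minus control (horizontal axis), of each gene tested among the CDK inhibitors and pocket proteins and in 6 lists of genes around the G1/S transition (rows), with the list median as a black bar and genes at an adjusted p under 0.05 in red. CDK6, CCNA2, E2F7 and RRM2 are the genes in red, at 0.28 to 0.50, and 20 of the 21 E2F target genes lie right of 0.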

How the data were processed

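RNA-seq of MM.1S cells was analysed in 3 control and 3 PRMT1 KD libraries, grouped by the sample labels. The deposited table gives FPKM computed by the authors for every gene in every library, beside gene length (in bases) and coordinates. The submitters' processing notes name featureCounts 1.5.0-p3 and hg38, while the aligner, the annotation release and the strand setting are not given in the sources used here. Coordinates and exon lengths of the 9 genes equalled those of GENCODE 29. Reads were worked back from FPKM and length: 100% of values were whole within 0.01 reads, and the deposited values already carried a scaling between libraries.

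Differences were tested with limma 3.58.1 in R 4.3.3 (linear model, empirical Bayes with trend, two-sided, Benjamini-Hochberg adjustment) on log2(FPKM + 1), over the 13585 genes with a mean of at least 1 FPKM. A difference on this scale understates the change of low genes. Calls are at an adjusted p under 0.05. Single genes were also compared by an exact permutation test. The fit was tested on data simulated with a dispersion of 0.02, in which 200 genes changed by 1 on the log2 scale. It recovered 126 of them (63%) with 4 false calls. That dispersion was a set value and was not matched to these libraries, in which the median SE over all genes tested was 0.0845. The 63% therefore does not give the share of such changes found in these libraries. Smaller differences, such as those of the members, were not simulated. Alternatives were no filter, a mean of at least 5 FPKM, a pseudocount of 0.1, TPM, median ratio scaling, no trend, voom on reads, a replicate block, each library left out and unadjusted p. Ratios of summed FPKM were described without a test.

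The members and lists were chosen with earlier results of these data known, although the rule for the members uses gene names alone. Named were PRMT1, the members, CDKN1A and CDKN3, the called genes and the 2 smallest p of each list, the genes in the ratios, genes overlapping a member and the 3 genes most like RBL2. CCND1 was named outside this rule, as the lower gene of its list at an unadjusted p under 0.05. Promoters came from RefSeq (GRCh38.p14).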

Additional observations from a re-analysis of the deposited data

How the results depend on the processing

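No member was called in the reported fit, nor with no filter, a pseudocount of 0.1, median ratio scaling, no trend, the replicate block or any library left out. The count was 2 (RBL1 and RBL2) with a mean of at least 5 FPKM, with TPM and with voom, and 3 at an unadjusted p under 0.05. Against 279 genes called in all, no filter gave 35, a mean of at least 5 FPKM 473, no trend 43, voom 927 and an unadjusted p 2655, and leaving out a library gave 13 to 94. The number of genes tested was 34078 with no filter and 7710 with a mean of at least 5 FPKM. The cause of these moves was not tested. Of the 4 pathway genes called, no filter left 1, no trend 0, voom gave 13 and an unadjusted p 26, and leaving out a library gave 0 to 1. CDK6, CCNA2, E2F7, RRM2 and RAP2C each kept their call in 5 to 7 of 14 alternatives and their direction in all. With a library left out, RB1 was -0.024 (without PRMT1 KD replicate 3, the sole reversal among the members and the pathway genes named) to 0.13. TPM moved the split of calls from 145 higher and 134 lower to 222 higher and 133 lower, and moved the median of all genes to 0.029.

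In the fit with a replicate block, 204 genes, 4 pathway genes and 0 members were called (adjusted p of RBL2 0.0601 and of RBL1 0.0614), and RAP2C lost its call (0.0539). Deviations of same-numbered libraries correlated by 0.02, 0.0631 and 0.101 and those of other pairs by -0.0751 to 0.0186. Every same-numbered pair lay above every other pair, weakly, so whether the numbers mark paired cultures was not settled. The main fit used no block. With the block, CDKN2A joined RBL2, RBL1 and CDKN2C at an unadjusted limma p under 0.05. CDKN2A, lower in PRMT1 KD libraries by -0.12, had a p of 0.0414 with the block (adjusted p = 0.177) and 0.162 without it. Depth limits CDKN2B and CDKN2D most, at 139 and 116 reads per library, and CDKN1C could not be tested.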
